A study of Homo sapiens with 6 samples.

Results

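The microRNAs (miRNAs) described here come from 2 families of mesenchymal cells, the cluster of miR-143 and miR-145 and the cluster of miR-199a and miR-214, with the further copies of the miR-199 hairpin. They were chosen by name, and the choice covers 10 mature miRNAs: both arms of miR-143, miR-145 and miR-214, miR-199a-5p, miR-199a-3p, miR-199b-5p and miR-199b-3p. Of these, 5 names were listed with counts, and they correspond to 4 of the 463 distinct sequences in the deposited count table, since miR-199a-3p and miR-199b-3p have the same sequence. The other 5, miR-143-5p, miR-145-3p, miR-199b-5p, miR-214-3p and miR-214-5p, were not listed in any library. Small RNA was sequenced from LX-2 cells, an immortalized line of human hepatic stellate cells, the pericyte-like cells of the liver that turn into collagen-producing myofibroblasts on injury. All libraries came from LX-2 cells activated with TGF-β1 at 10 ng/mL for 24 h according to the labels, whereas the methods of the study describe a longer exposure. In the co-culture group (3 libraries) the cells then shared medium for 48 h with HUC-MSCs, mesenchymal stem cells from human umbilical cords, across a transwell membrane, and in the single culture group (3 libraries) they were kept without HUC-MSCs. LX-2 is a single line, HUC-MSCs are themselves mesenchymal, and no group without TGF-β1 is part of the comparison.

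miR-143 and miR-145 are cut from neighbouring hairpins inside the long noncoding RNA CARMN. In smooth muscle they are switched on by serum response factor and myocardin, and they are known for promoting the contractile state of smooth muscle cells and for their abundance in pericytes and fibroblasts. miR-199a and miR-214 are cut from DNM3OS, an RNA transcribed on the strand opposite to the dynamin gene DNM3, which the transcription factor Twist1 activates in mesenchyme. Further miR-199 hairpins lie opposite to DNM2 and DNM1, and in the liver miR-199a, miR-199b and miR-214 are known as miRNAs whose level rises with fibrosis.

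The sequences with counts are shown here because the identity of the 3′ arm of miR-199 decides which loci its tags can be assigned to. They are written 5′ to 3′ from RefSeq (GRCh38.p14), the last one from the deposited table, and capitals mark the seed (bases 2 to 8), the part of a miRNA that pairs with its targets.
miR-143-3p: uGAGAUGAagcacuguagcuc
miR-145-5p: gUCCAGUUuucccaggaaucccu
miR-199a-5p: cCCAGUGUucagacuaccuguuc
miR-199a-3p and miR-199b-3p: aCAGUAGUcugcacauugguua
miR-199a/b-3p, shorter form: aCAGUAGUcugcacauugguu
The listed members have 4 different seeds, and no other listed sequence outside this set shares them. The shorter form of 21 bases lacks 1 A at the 3′ end, was listed by the authors under names of predicted hairpins, and occurs in the hairpins MIR199A1, MIR199A2 and MIR199B. miR-199a-3p tags therefore cannot be told apart from miR-199b-3p tags, and a tag of either form can come from any of these 3 hairpins.

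A hairpin of each cluster is given next, from RefSeq (GRCh38.p14), to show which arms had counts, and these arms are in capitals.
MIR143: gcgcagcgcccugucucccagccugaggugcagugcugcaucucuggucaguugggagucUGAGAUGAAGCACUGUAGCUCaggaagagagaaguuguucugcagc
MIR199A2: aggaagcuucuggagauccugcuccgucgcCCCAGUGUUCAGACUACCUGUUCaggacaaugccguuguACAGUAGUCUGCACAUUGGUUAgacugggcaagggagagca
In MIR143 only the 3′ arm had counts, whereas in MIR199A2 both arms did. On GRCh38.p14, MIR143 lies on chromosome 5 at 149428918 to 149429023 on the plus strand and overlaps an exon of CARMN in GENCODE release 29. MIR145 follows after 1622 bases, at 149430646 to 149430733, within CARMN but outside its annotated exons. MIR199A2 lies on the minus strand of chromosome 1 at 172144535 to 172144644 and MIR214 at 172138798 to 172138907, with 5627 bases between them, and both overlap an exon of DNM3OS. MIR199A1 (chromosome 19, 10817426 to 10817496) lies opposite to DNM2, and MIR199B (chromosome 9, 128244721 to 128244830) lies opposite to DNM1.

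The libraries differed in depth along with the groups, which bears on every value below. Total tags were 325037, 604418 and 421964 in the co-culture libraries 1, 2 and 3, against 209043, 43956 and 47528 in the single culture libraries 1, 2 and 3, numbered as the columns of the table. Forms of miR-21-5p, a miRNA abundant in activated fibroblasts, took 75.0% to 81.2% of tags in co-culture and 37.1% to 56.4% in single culture. Tags of 17 to 20 bases, shorter than most mature miRNAs, took 2.12% to 3.79% of tags in co-culture, against 7.56%, 23.4% and 25.7% in single culture libraries 1, 2 and 3. Library 1 of single culture stood apart from its group: across sequences it correlated at 0.970 to 0.981 with the co-culture libraries and at 0.914 and 0.932 with the other single culture libraries. Levels are given as CPM, tag counts set to the same library total, after TMM scaling, which assumes that most sequences do not differ between libraries. The labels do not say that the libraries came from separate cultures, so p-values measure only the spread between them. In bulk RNA, fewer cells of a type and less RNA per cell cannot be told apart.

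miR-143-3p was by far the most abundant member, and its mean level was lower in co-culture, but the difference did not pass the adjusted test. It had 234, 310 and 239 raw tags in co-culture, against 237, 156 and 201 in single culture. These raw tags differed by 1.99 times between the highest and the lowest library while total tags differed by 13.8 times. Of 43 sequences with at least 50 tags in every library, only let-7c-5p and a predicted sequence that the authors named for chromosome 6 had a smaller ratio, and the median ratio was 6.07. TMM-scaled, miR-143-3p had 906, 825 and 847 CPM in co-culture, against 780, 2417 and 2977 CPM in single culture. The co-culture libraries lay close together, library 1 of single culture lay just below them, and libraries 2 and 3 of single culture lay far above, so that the groups overlapped. For comparison, 15.9% of the tested sequences were lower in co-culture on this scale without overlap.

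miR-143-3p averaged 860 ± 41.9 CPM in co-culture and 2058 ± 1142 CPM in single culture (SD, n = 3 each). The log2 fold change was -1.23 (standard error 0.45, 95% interval -2.31 to -0.15), with an adjusted p of 0.144 in edgeR's quasi-likelihood test with Benjamini-Hochberg adjustment over 182 sequences (unadjusted p = 0.0308 in edgeR). It met the thresholds that the study used for miRNAs, a fold change over 1.5 and an unadjusted p under 0.05, as did 17.6% of the tested sequences in either direction and 10.4% in the lower direction. At an adjusted p under 0.05, 4.40% of the tested sequences were called, and none of the members was: miR-143-3p, the only one to reach the minimum of 10 counts in 3 or more libraries, ranked 38 by p. Its log2 fold change was the 15th lowest of the 182, against a median of -0.04 over all of them.

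**Figure D1:**
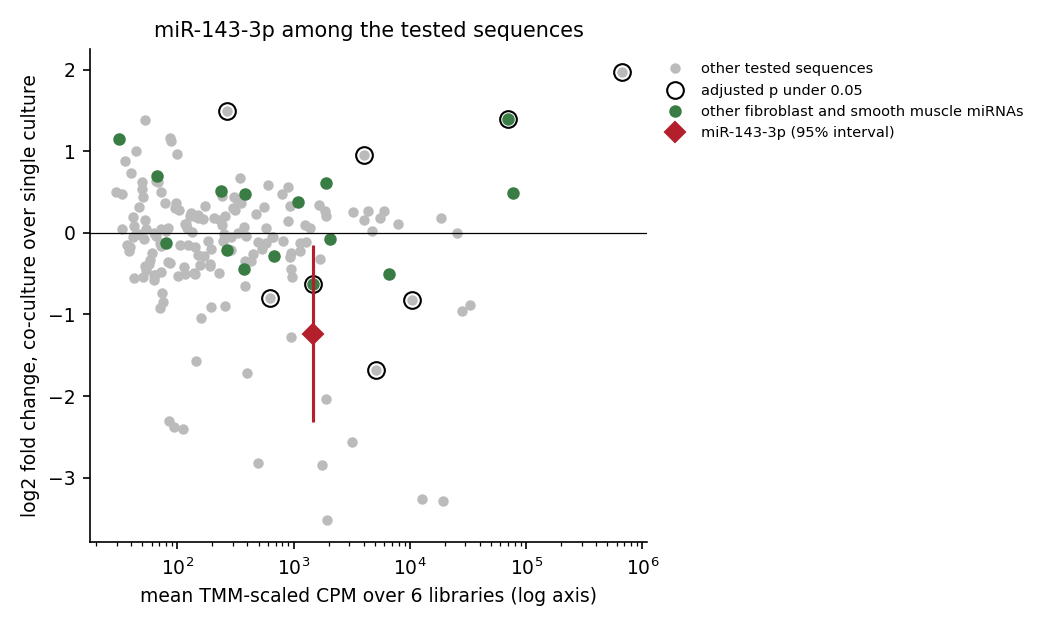
Log2 fold change of co-culture over single culture (vertical axis) against mean TMM-scaled CPM on a log axis for the 182 tested sequences. miR-143-3p (red diamond, with its 95% interval) sits at -1.23, below all 15 other fibroblast and smooth muscle miRNAs (green), and rings mark the 8 sequences with an adjusted p under 0.05.

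Counting error was small beside the spread of single culture. The exact Poisson 95% intervals of miR-143-3p were 794 to 1030, 736 to 923 and 743 to 962 CPM in the co-culture libraries, and 684 to 886, 2053 to 2828 and 2580 to 3418 CPM in the single culture libraries, covering counting error only. The interval of single culture library 1 overlapped those of all 3 co-culture libraries, and the intervals of libraries 2 and 3 overlapped none of these. The coefficient of variation was 4.88% in co-culture, where the median of the tested sequences was 13.3%, and 55.5% in single culture, where the median was 22.2%.

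The split inside single culture was unusual for a known miRNA. Libraries 2 and 3 held 3.10 and 3.82 times the miR-143-3p level of library 1, with a mean of 3.46, whereas the median tested sequence stood at 0.972. Of the tested sequences 14 had a higher mean ratio, and only 1 of those was among the 144 known miRNAs. Without library 1 of single culture, the log2 fold change of miR-143-3p was -1.67 with an adjusted p of 1.22e-05 (edgeR). Without libraries 2 and 3 of single culture it was 0.14 with an adjusted p of 0.696 (edgeR, with the lone remaining library assumed to vary like the others). On the TMM scale, the direction of the difference thus rested on libraries 2 and 3, the shallowest and the richest in short tags. The part of depth and short tags in this difference was not tested.

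The scaling of the libraries also decided whether the groups overlapped. As a share of all tags, miR-143-3p took 0.0720%, 0.0513% and 0.0566% in co-culture, against 0.113%, 0.355% and 0.423% in single culture. On this scale every co-culture library was below every single culture library, and 75.3% of the tested sequences showed the same separation, so it is not particular to miR-143-3p. As a share of the tags other than miR-21-5p forms, it took 0.288%, 0.272% and 0.301% in co-culture, against 0.260%, 0.589% and 0.672% in single culture, and the groups overlapped. On this denominator 8.24% of the tested sequences were lower in co-culture without overlap.

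Leaving out short tags as well did not bring the groups apart. As a share of tags of at least 21 bases other than miR-21-5p forms, miR-143-3p took 0.340%, 0.310% and 0.339% in co-culture, against 0.314%, 0.963% and 1.14% in single culture. On the normalized tag counts of the authors it had 269, 201 and 223 in co-culture, against 401, 716 and 807 in single culture, without overlap, as for 28.6% of the tested sequences in this direction. The log2 ratio of the group means was -2.31 for the share of all tags, -0.82 without miR-21-5p forms, -1.29 without short tags as well, and -1.47 on the normalized tag counts of the authors.

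**Figure D2:**
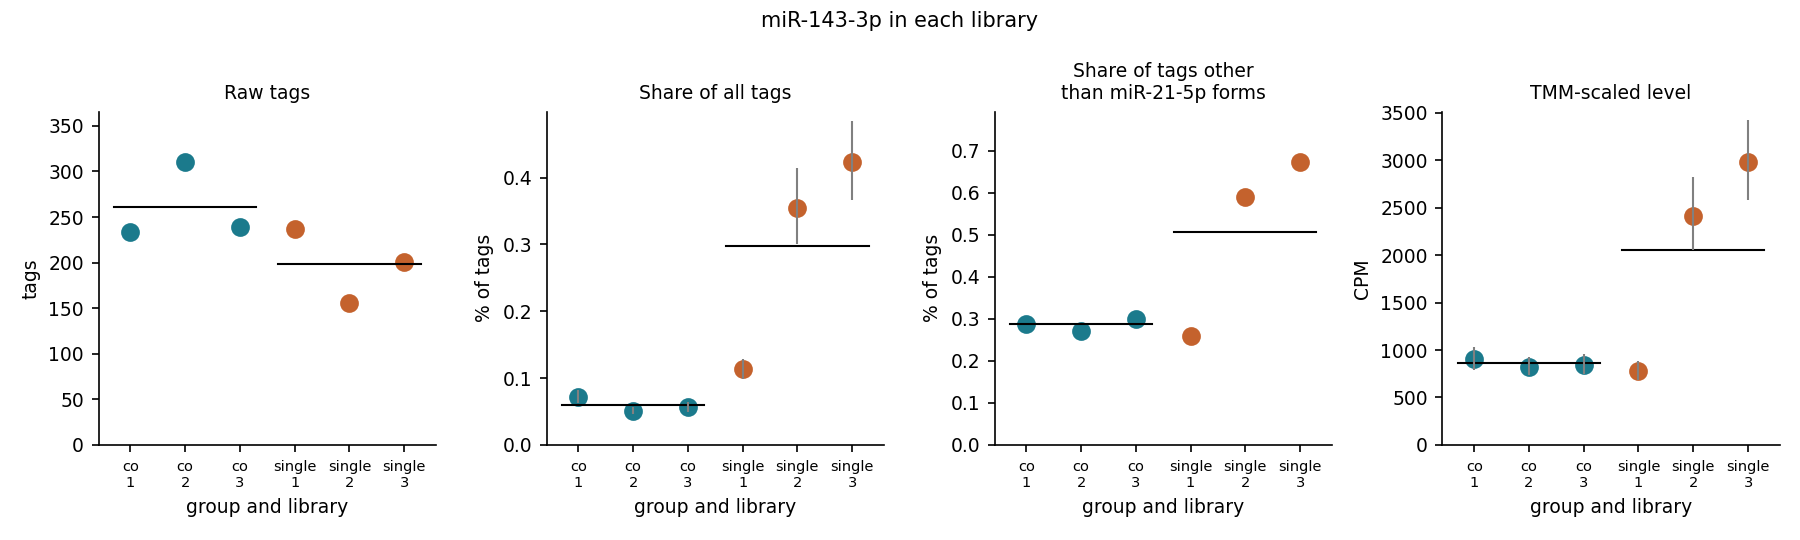
miR-143-3p in each library as raw tags, as a percentage of all tags, as a percentage of tags other than miR-21-5p forms and as TMM-scaled CPM, with co-culture libraries left and single culture libraries right. Black lines are group means and grey lines 95% counting intervals; library 1 of single culture sits with the co-culture libraries in the last 2 panels (0.260% and 780 CPM).

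The call of miR-143-3p changed with the settings. Library size alone gave -2.29 (adjusted p = 0.00409 in edgeR) and the scaling of the authors gave -1.47 (adjusted p = 0.0139 in edgeR). DESeq2 gave -1.24 with an adjusted p of 0.0720. Without a minimum count, in the fit used below for the less abundant members, miR-143-3p had -1.17 (adjusted p = 2.07e-06 in edgeR). Its standard error there was 0.21, against 0.45 with the minimum of 10 counts, from the same tags. Standard errors and p-values of the fit without a minimum thus depend on which sequences are included. That fit called 37 of 463 sequences at an adjusted p under 0.05. Over 20 alternatives the log2 fold change was negative in 19, the exception being the fit without libraries 2 and 3 of single culture. It passed an adjusted p of 0.05 in 6. Apart from that exception, adjusted p-values were 2.07e-06 to 0.351 (edgeR, limma and DESeq2). Summing related forms, 1 of the 20, could not change the value of miR-143-3p, which has no related form.

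**Figure D3:**
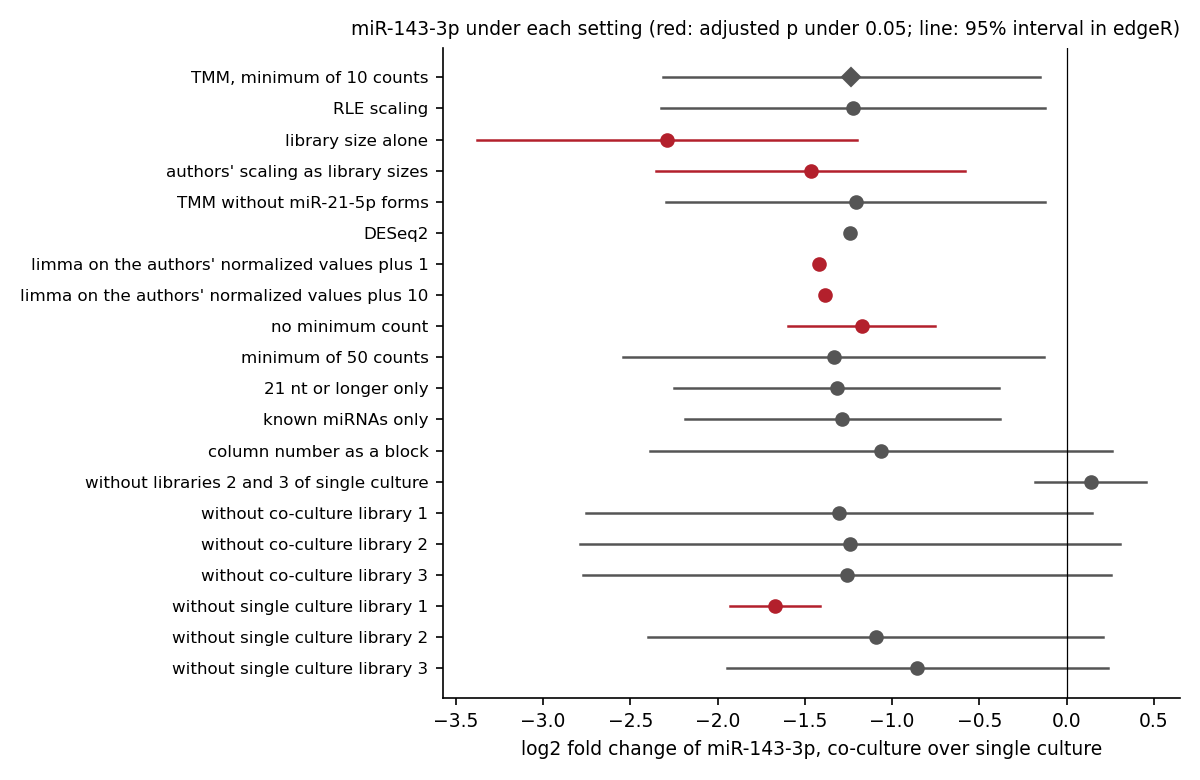
Log2 fold change of miR-143-3p, co-culture over single culture (horizontal axis), under the analysis as reported (diamond) and alternative settings, with 95% intervals where edgeR was used. Red marks an adjusted p under 0.05; the single positive value, 0.14, is the fit without libraries 2 and 3 of single culture.

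Within its hairpin, miR-143 was represented by the 3′ arm alone. miR-143-5p, the passenger arm, had fewer than 2 tags in each library, since the table leaves a cell blank below that number. miR-143-3p thus made up at least 99.6% of the tags of both arms in co-culture and at least 99.5% in single culture. Among the tags of all members, miR-143-3p accounted for 95.9%, 96.3% and 94.8% in the co-culture libraries and for 94.0%, 96.9% and 98.5% in the single culture libraries. By mean CPM it ranked 32 of the 463 sequences, and within libraries it ranked 39, 40 and 40 in co-culture, against 46, 25 and 23 in single culture.

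miR-145-5p, the guide arm of the neighbouring hairpin, was near the limit of listing. It had 4 tags, a blank and 4 tags in the co-culture libraries, against 6 tags, 2 tags and a blank in the single culture libraries. With 8 tags in each group, no difference was detectable at this depth, and the fit without a minimum count gave a log2 fold change of -0.86 with a standard error of 1.10 (adjusted p = 0.700 in edgeR). The value was -0.17 without co-culture library 2, which holds the blank, -0.56 without single culture library 1 and -1.30 without co-culture library 1, and none of the leave-outs passed the test. Relative to its neighbour, miR-145-5p made up 1.01% to 1.14% of the summed tags of miR-145-5p and miR-143-3p in co-culture and 1.33% to 1.49% in single culture, the bounds standing for blanks of 0 or 1 tag. Tags of different sequences are compared here as counts, and how efficiently each was captured in the library was not measured. miR-145-3p was not listed.

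miR-199a-5p, the 5′ arm of the miR-199a hairpins, was the only member of the miR-199 and miR-214 family listed in all 6 libraries. It had 4, 8 and 7 tags in co-culture, against 7, 3 and 3 tags in single culture. Its level was 15.5, 21.3 and 24.8 CPM in co-culture, against 23.04, 46.5 and 44.4 CPM in single culture. Libraries 2 and 3 of single culture were again the highest, although they rest on 3 tags each, and library 1 fell within the range of co-culture.

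miR-199a-5p averaged 20.5 ± 4.71 CPM in co-culture and 38.0 ± 13.0 CPM in single culture (SD, n = 3 each). Without a minimum count the log2 fold change was -0.58 with a standard error of 0.70 (adjusted p = 0.700 in edgeR). With library size alone it was -1.71 (adjusted p = 0.0497 in edgeR), in a fit of all 463 sequences whose median log2 fold change was -1.01 and in which 35.9% of the sequences were lower in co-culture at an adjusted p under 0.05. As a share of all tags its groups did not overlap, with 0.00123% to 0.00166% in co-culture and 0.00335% to 0.00683% in single culture. This separation was shown by 75.3% of the 182 tested sequences. On the normalized tag counts of the authors it had 5 to 7 in co-culture and 11 to 15 in single culture. These did not overlap either, as for 28.6% of the tested sequences in this direction. As a share of the tags other than miR-21-5p forms, its groups overlapped.

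The 3′ arm of miR-199 was listed mainly in co-culture, where the libraries were deeper. miR-199a/b-3p had 2, 4 and 2 tags in co-culture, against 2 tags and 2 blanks in single culture. The shorter form had 2, 5 and 2 tags in co-culture, against 3 tags and 2 blanks in single culture. The blanks fell in libraries 2 and 3 of single culture, where 2 tags equal 31.0 and 29.6 CPM, above the 7.75, 10.6 and 7.09 CPM of miR-199a/b-3p in the co-culture libraries. The co-culture level corresponds to fewer than 2 tags in these libraries, and the blanks do not show a lower level.

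Summed over both forms, the 3′ arm of miR-199 had 4, 9 and 4 tags in co-culture, against 5 tags and 2 blanks in single culture. Library 1 of single culture, the deepest of its group, had 16.5 CPM, within the 14.2 to 24.0 CPM of the co-culture libraries. The fit of the summed forms without a minimum count gave a log2 fold change of 0.85 with a standard error of 1.04 (adjusted p = 0.697 in edgeR), a value that depends on the prior count because of the blanks. Without single culture library 1, which leaves only blanks in that group, the fitted value of miR-199a/b-3p was 3.98 (standard error 2.78) and that of the shorter form 4.13 (standard error 2.71), against 0.98 and 0.63 with all libraries, and neither passed the test. Over all libraries the listed 3′ forms held 22 tags and miR-199a-5p held 32, so neither arm dominated as in miR-143.

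**Figure D4:**
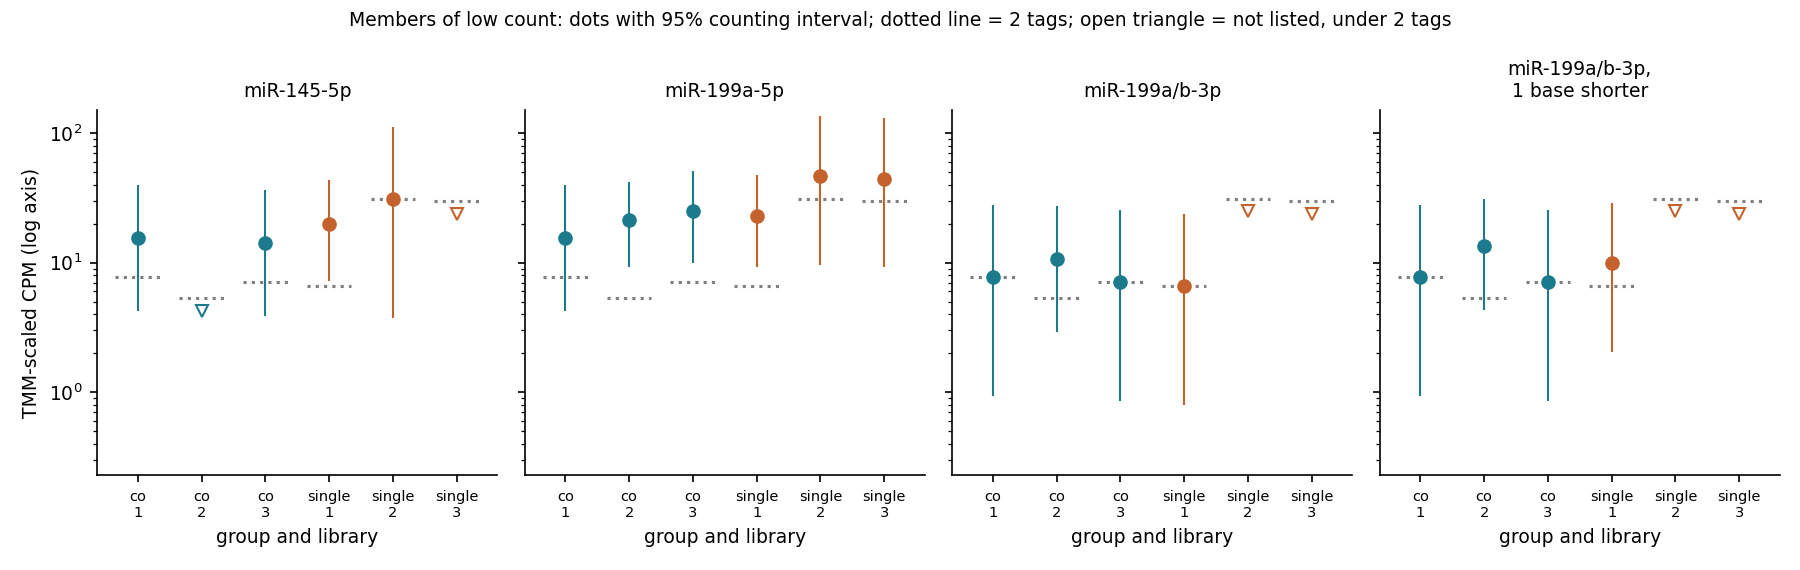
TMM-scaled CPM (log axis) of miR-145-5p, miR-199a-5p, miR-199a/b-3p and its shorter form in each library, co-culture left and single culture right, with 95% counting intervals. Dotted lines show what 2 tags equal in that library and open triangles mark blanks; the line sits at 31.0 and 29.6 CPM in libraries 2 and 3 of single culture, above all miR-199a/b-3p values of co-culture.

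miR-214-3p and miR-214-5p, cut from the same DNM3OS transcript as miR-199a, were not listed in any library. Fewer than 2 tags equal less than 5.32 to 7.75 CPM per library in co-culture and less than 6.58, 31.0 and 29.6 CPM in single culture libraries 1, 2 and 3. miR-214-3p therefore made up at most 13.6% of the summed tags of miR-214-3p and miR-199a-5p in co-culture and at most 18.8% in single culture. miR-199b-5p, from the hairpin on chromosome 9, was likewise not listed, so the listed 5′ tags of the family all carry the miR-199a-5p sequence.

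The 2 families were compared within libraries through the ratio of miR-143-3p to miR-199a-5p, which does not depend on scaling and was chosen after the tags had been seen. The ratio was 58.5, 38.8 and 34.1 tags of miR-143-3p per tag of miR-199a-5p in co-culture, against 33.9, 52.0 and 67.0 in single culture. The groups overlapped, with the lowest and the highest ratio both in single culture. The log2 ratio averaged 5.41 ± 0.41 in co-culture and 5.62 ± 0.50 in single culture (SD, n = 3 each), a difference of -0.20 (exact two-sided permutation test, p = 0.70, where 0.10 is the smallest p that 3 libraries against 3 allow).

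The pattern of miR-143-3p over the 6 libraries was most like that of miR-134-5p (Pearson's r of log2 CPM = 0.999), miR-184 (0.990) and let-7c-5p (0.986). Predicted sequences of 17 and 20 bases followed (0.984 and 0.977). These values are a description over libraries that share depth and short-tag content. let-7c-5p, a let-7 family member, had 527, 503 and 589 CPM in co-culture, against 369, 1611 and 2088 CPM in single culture. miR-134-5p, from the large miRNA cluster on chromosome 14, had 287, 274 and 284 CPM in co-culture, against 273, 542 and 607 CPM in single culture. In each of these, as in miR-143-3p, libraries 2 and 3 of single culture were the high ones. The predicted sequence of 17 bases had 2789, 2351 and 1989 CPM in co-culture, against 3361, 26094 and 39028 CPM in single culture. miR-199a-5p was most like miR-184 (0.942).

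The other miRNAs that fibroblasts and smooth muscle cells carry had fold changes on both sides of 0. Of a list of 20, 19 were listed and 15 passed the minimum count, with a median log2 fold change of 0.37 and a range of -0.62 to 1.39, beside a median of -0.04 over all tested sequences. Of the 15, 8 had a positive and 7 a negative log2 fold change. At an adjusted p under 0.05 in edgeR, miR-21-5p was higher in co-culture (log2 fold change 1.39) and miR-221-3p lower (-0.62). The other 13 did not pass, and 4.40% of all tested sequences did. The list holds miR-21-5p as its form of 22 bases. Its more abundant form of 23 bases, listed under a predicted name, had a log2 fold change of 1.97 (adjusted p = 0.00737 in edgeR). Past a fold change of 1.5 and an unadjusted p of 0.05 in edgeR, 4 of the 15 were higher and 1 lower. Of all 182 tested sequences, 13 were higher and 19 lower past these thresholds, which is 17.6% in either direction. miR-100-5p, among the most abundant of them, had a log2 fold change of 0.48 (adjusted p = 0.123 in edgeR), and miR-27b-3p had -0.50 (adjusted p = 0.0502 in edgeR).

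Of 32 markers of other cell types 5 were listed, some of them at levels above those of the less abundant members. None of 7 epithelial, 8 blood and 7 striated muscle miRNAs was listed, including the defining miR-200c-3p, miR-142-3p, miR-223-3p and miR-133a-3p. miR-122-5p, which defines hepatocytes, was not listed, while the summed level of miR-192-5p and miR-194-5p was 284 to 322 CPM in co-culture and 118 to 270 CPM in single culture. miR-126-3p, which defines endothelial cells, was listed in all 6 libraries, with 46, 68 and 65 tags in co-culture and 53, 8 and 10 tags in single culture. Its mean over all libraries was 173 CPM and that of miR-192-5p was 241 CPM, beside 29.3 CPM for miR-199a-5p and 13.4 CPM for miR-145-5p. The means of miR-194-5p (11.0 CPM) and miR-126-5p (7.61 CPM) were below those of both members. Both miR-126 arms summed to 186 to 255 CPM in co-culture and 124 to 174 CPM in single culture. The neuronal miR-124-3p was not listed, and miR-9-5p had 65.9 to 81.5 CPM in co-culture and 31.0 to 118 CPM in single culture. The RNA of all libraries was extracted from LX-2 cells, so a listed marker does not show that another cell type was present. Why these miRNAs were listed was not tested.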

How the data were processed

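Small RNA libraries of TGF-β1-activated LX-2 cells in co-culture with HUC-MSCs (3) or in single culture (3) were analysed. The deposited values are raw tag counts, with cells under 2 tags left blank, and a normalized tag count, used here as a score because what it scales to is not stated. Columns of the authors' own fold changes, p-values and FDR were not used. Bowtie 0.12.2 and the builds hg18 and mm8 stand in the processing notes of the submitters, and the step of each was not given in the sources used here. Columns are numbered and were assigned to groups, not to samples, because the authors' group means equal the means of these columns in 519 of 519 rows of the comparison table. There were 0 columns without a group.

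The 520 rows were merged by mature sequence into 463 sequences. Raw counts, with blanks as 0, were scaled by TMM and fitted in edgeR 4.0.16 (R 4.3.3) for the 182 sequences that reached 10 counts in 3 or more libraries. P-values were adjusted over these by Benjamini-Hochberg. Members below the minimum were taken from a fit without it. Alternatives used limma 3.58.1, DESeq2 1.42.0, other scalings and minimums, and left out libraries. The fit was tested on simulated data with the same spread for all sequences and no library set apart from its group. That test could not show how the fit handles such a library. Intervals of single libraries are exact and cover counting error only. Standard errors and intervals of log2 fold changes in edgeR were calculated back from the fold change and its p-value. They are not exact, and the standard error is unreliable for a fold change near 0. Named miRNAs are the members, the 5 most like a member by Pearson's r of log2 CPM (prior count 2), list members and markers. The members and lists were chosen with earlier results of these data known. No ratio planned within a cluster had both miRNAs in every library.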

Additional observations from a re-analysis of the deposited data

How the results depend on the processing

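Of 182 sequences, 8 had an adjusted p under 0.05 in edgeR. The number was 140 with library size alone, 21 with the scaling of the authors, 22 in DESeq2, 18 and 20 in limma on the normalized values plus 1 and plus 10, 37 without a minimum count, 21 with a minimum of 50, 13 without libraries 2 and 3 of single culture, and 0 to 43 with each library left out (43 without single culture library 1; 0 without co-culture library 2 or 3, with 34 and 33 at an unadjusted p under 0.05). Of these, 139 of 140 with library size alone and 20 of 21 with the scaling of the authors were lower in co-culture, against 4 of 8. Past a 1.5-fold change and an unadjusted p of 0.05 were 19 lower and 13 higher sequences, against 142 and 1 with library size alone, 45 and 2 with the scaling of the authors, 32 and 3 in limma plus 1, 30 and 4 in limma plus 10 and 7 and 7 among known miRNAs. The lower ones were 42 without a minimum, 11 among sequences of 21 bases or more and 11 without libraries 2 and 3 of single culture, and the higher ones 5 with a minimum of 50. With the column number as a replicate block, 0 sequences had an adjusted p under 0.05 in edgeR (30 an unadjusted p under 0.05), 12 were lower past the other thresholds, and miR-143-3p had -1.06 (adjusted p = 0.292). After the group mean of each sequence was subtracted from its log2 CPM, same-numbered libraries correlated at -0.36, -0.11 and -0.21. With 3 libraries per group, and library 1 of single culture apart from its group, these values cannot decide whether same-numbered libraries were paired.

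For miR-143-3p (-1.23), the log2 fold change passed an adjusted p of 0.05 with library size alone (-2.29), the scaling of the authors (-1.47), limma plus 1 (-1.42) and plus 10 (-1.38), and without a minimum count (-1.17). It was -1.67 to -0.86 with each library left out and 0.14 without libraries 2 and 3 of single culture. The sign turned for miR-199a/b-3p with library size alone (-0.052), for its shorter form with library size alone (-0.43) and the scaling of the authors (-0.0147), and for the log2 ratio of miR-143-3p to miR-199a-5p without single culture library 3 (0.0224), the 6 leave-outs of which gave -0.47 to 0.0224. With each library left out, the log2 fold change was -1.30 to -0.17 for miR-145-5p, -0.95 to -0.38 for miR-199a-5p, 0.74 to 3.98 for miR-199a/b-3p and 0.35 to 4.13 for its shorter form, the highest values of the last 2 without single culture library 1. The cause of these changes was not tested. Depth limits miR-145-5p and the miR-199 arms, which rest on 10 to 32 tags over all libraries.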
